A study of Arabidopsis thaliana with 6 samples.

Results

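Cytosolic ribosomal proteins build the ribosomes that translate nuclear messages, and 58 nuclear Arabidopsis genes for them, 39 of the large and 19 of the small subunit, were examined on 6 Affymetrix arrays. Members were found by locus on probe sets that the platform annotation pairs with 1 gene. Such probe sets name 13286 genes on the array. They named 32 of the 58, and 31 of these, 22 large and 9 small, were bright enough to be tested among 17059 probe sets. A further 9 loci lay only on 8 probe sets that carry several genes, and for the remaining 17 no probe set was named here. The arrays hold RNA of Columbia seedlings, prepared in batches of 3 seedlings and pooled, so no value is that of a single plant. All seedlings, raised for 10 d under days of 16 h, spent a further 8 h in liquid medium that held 1e-07 M 2,4-D, a synthetic auxin. The medium of 3 samples also held 1e-06 M brassinazole, which inhibits brassinosteroid synthesis, and 3 samples had 2,4-D alone. Neither untreated seedlings nor any given brassinazole but no auxin were analysed here, and every difference is one between seedlings that had 2,4-D. Array numbers are the replicate numbers of the labels, and auxin 1, 2 and 3 are the arrays with 2,4-D alone.

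Each plant ribosomal protein is encoded by a small family of similar genes, and the subunits are assembled in the nucleolus and joined on a message. The large subunit forms the peptide bond and holds the tunnel through which the new chain leaves, while the small subunit reads the message. Transcripts for ribosomal proteins are abundant in growing tissue, and their synthesis is linked to growth through the TOR kinase pathway. The subunit and protein of each locus were assigned from general knowledge of these families. Among the tested genes the RefSeq table gives a symbol other than the locus only for AT2G27530, PGY1.

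In seedlings given brassinazole, most measured transcripts of these genes were slightly higher. The log2 change, brassinazole plus 2,4-D minus 2,4-D alone, was above 0 in 31 of 31 tested genes, against 47.3% of all probe sets tested. Its median was 0.25, a 1.19-fold difference, with a range of 0.05 to 0.50, and the median of all probe sets was -0.01. Of the 31 genes, 11 rose past the threshold (limma adjusted p under 0.05), where 3.44% of all probe sets did, and 0 fell, where 4.08% did. At an unadjusted limma p under 0.05, 22 were higher and 0 lower, against 10.5% and 11.4% of all probe sets. RNA came from seedlings and not from sorted cells, so more cells rich in ribosomes and more of these transcripts per cell cannot be told apart.

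Leaving out the mean-variance trend or the filter on dim probe sets cannot move a gene's log2 change, but the number of calls depended on the fit. This number was 2 without the trend, where 1.85% of all probe sets were called higher, and 4 with no filter, where 1.77% were. Without brassinazole 1, 2 or 3 it was 8, 3 and 7, where 2.52%, 1.98% and 3.09% of all probe sets were called higher. Without auxin 1, 2 or 3 it was 6, 5 and 6, where 2.22%, 2.33% and 2.24% were. Without auxin 1 and brassinazole 3 together, whose control probe sets stood apart from those of the other arrays, it was 4, where 2.08% were. In each of these fits the share of all probe sets called higher was also below 3.44%.

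**Figure D1:**
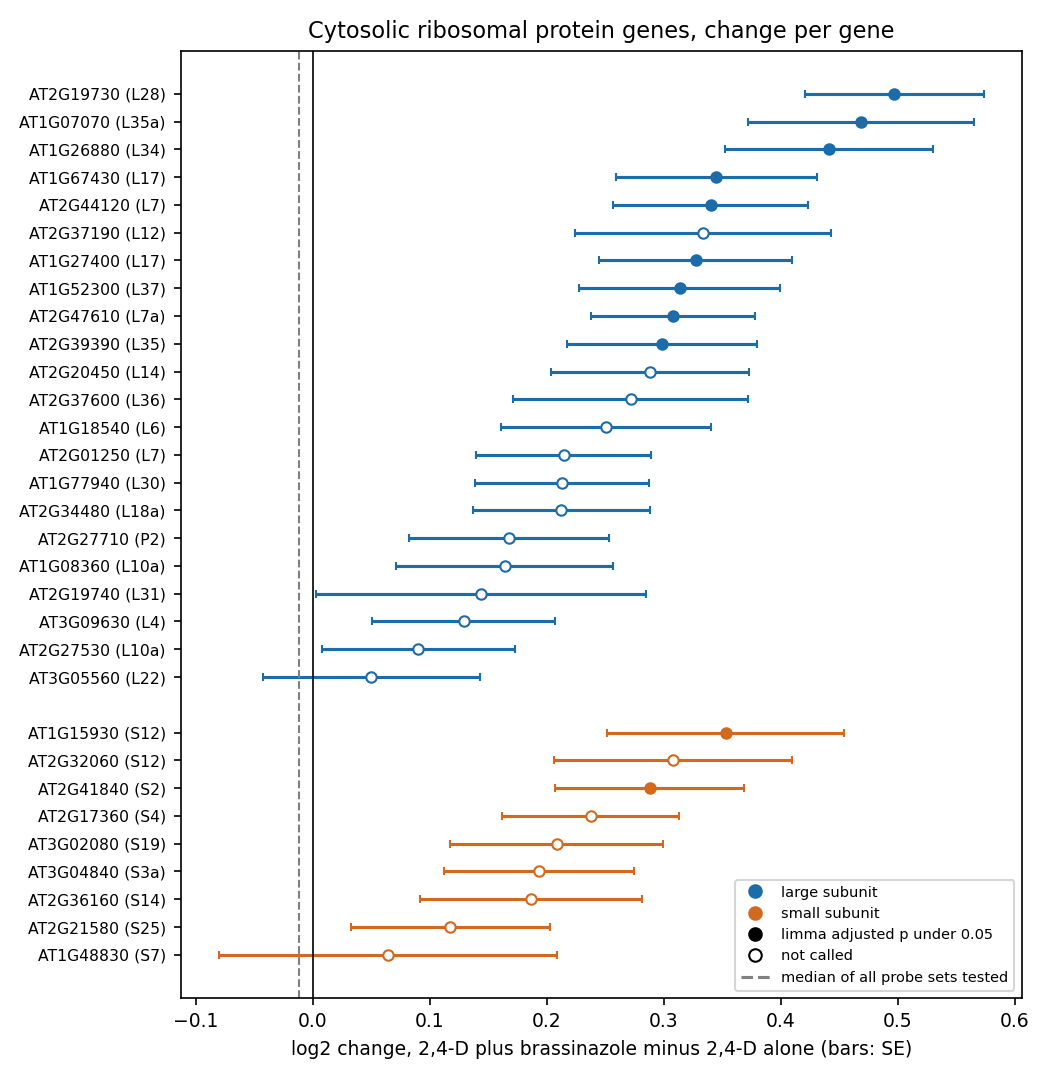
Log2 change of each of 31 tested genes (horizontal axis, 2,4-D plus brassinazole minus 2,4-D alone, bars are SE) by locus and protein, with the 22 large subunit genes above the 9 of the small subunit. Filled points passed a limma adjusted p under 0.05. Every point lies right of 0 and of the dashed median of all probe sets, and the 11 filled points lie between 0.29 and 0.50.

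Among large subunit genes, 9 of 22 rose, against 3.44% of all probe sets tested. Their median log2 change over the 22 was 0.28, with quartiles of 0.18 and 0.33. AT2G19730 encodes L28, a protein that budding yeast lacks. Its signals were 10976, 11153 and 10975 with brassinazole on replicates 1 to 3, against 8342, 7884 and 7252 with 2,4-D alone. The brassinazole arrays were tight and all lay above the others, a log2 change of 0.50 ± 0.08 (SE, n = 3 each, limma adjusted p = 0.00105). AT1G07070, which encodes L35a, had signals of 697, 735 and 787 with brassinazole, against 511, 491 and 592 with 2,4-D alone. The groups did not overlap, and its log2 change was 0.47 ± 0.10 (adjusted p = 0.00812). AT1G26880, which encodes L34, had 5478, 5549 and 6712 with brassinazole, against 4234, 4191 and 4576 with 2,4-D alone. Brassinazole replicate 3 was the highest of these, and the log2 change was 0.44 ± 0.09 (adjusted p = 0.00706). These 3 genes remained called with any single array left out, whereas each of the other 8 called genes remained so in only 1 to 3 of those 6 fits.

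L17, part of the wall of the exit tunnel, is encoded by both AT1G67430 and AT1G27400, and both rose. AT1G67430 had 10179, 11494 and 12364 with brassinazole, against 8926, 9405 and 8398 with 2,4-D alone (log2 change 0.35 ± 0.09, adjusted p = 0.0249). AT1G27400 had 4455, 4957 and 5053 with brassinazole, against 3660.3, 3699.6 and 4162 with 2,4-D alone (0.33 ± 0.08, adjusted p = 0.0269). In both genes every brassinazole array lay above every array with 2,4-D alone. AT2G39390, which encodes L35, a protein at the mouth of the tunnel, had 2409.8, 2365 and 2095 with brassinazole, against 1903, 1787 and 1878 with 2,4-D alone, again with no overlap (0.30 ± 0.08, adjusted p = 0.0390). AT3G09630, which encodes L4, whose loop narrows the tunnel, averaged 6509 ± 460.0 with brassinazole and 5944 ± 221 with 2,4-D alone (SD). Its groups overlapped and it did not pass, with a log2 change of 0.13 ± 0.08 (adjusted p = 0.371).

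Other large subunit genes past the threshold were those for L7, L37 and L7a. AT2G44120 (L7) had 6652, 6939 and 7483 with brassinazole, against 5813, 5030.5 and 5814 with 2,4-D alone (log2 change 0.34 ± 0.08, adjusted p = 0.0229). AT1G52300, which encodes the zinc-binding protein L37, had 14317, 13906 and 12294 with brassinazole, against 9919, 11608 and 11063 with 2,4-D alone (0.31 ± 0.09, adjusted p = 0.0407). AT2G47610 (L7a) had 6809.9, 6545 and 6832 with brassinazole, against 5474, 5395 and 5427 with 2,4-D alone (0.31 ± 0.07, adjusted p = 0.0154). Replicates of AT2G47610 were close to each other in both groups, and in none of these 3 genes did the groups overlap. AT2G37190 encodes L12, which sits at the base of the stalk that binds elongation factors. It had 9663, 8590.2 and 7857 with brassinazole, against 7977, 7009.9 and 5819.6 with 2,4-D alone. Its log2 change of 0.33 ± 0.11 was above that of L7a, but its arrays spread more and overlapped, and it did not pass (adjusted p = 0.0841). It did pass without auxin 1, at 0.44 (adjusted p = 0.0428), and without auxin 1 and brassinazole 3 together, at 0.51 (adjusted p = 0.0235). Without auxin 3 it fell to 0.21 (adjusted p = 0.282).

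Several large subunit genes lay at 0.21 to 0.29 and did not pass. Of these, 4 are described here, and in 3 the groups did not overlap, against 12.9% of all probe sets with every brassinazole array higher. AT2G01250 (L7) and AT1G77940 (L30), both at 0.21 with no overlap, also lay in this range. AT2G20450 (L14) had 1823, 1845 and 2125 with brassinazole, against 1504, 1622 and 1600.2 with 2,4-D alone, a log2 change of 0.29 ± 0.08 (adjusted p = 0.0540). It passed with arrays centred on their median (adjusted p = 0.0469), with quantile normalization (0.0485) and with a filter at the 50th percentile (0.0471). It did not pass with cyclic loess (0.0609), and without brassinazole 3 it was at 0.22 (0.125). AT2G37600 (L36) had 814, 737 and 634 with brassinazole, against 627, 571 and 596 with 2,4-D alone (0.27 ± 0.10, adjusted p = 0.125). It passed without brassinazole 3, at 0.37 (adjusted p = 0.0335), and without auxin 1 and brassinazole 3 together, at 0.40 (adjusted p = 0.0478). Without brassinazole 1 it fell to 0.19 (adjusted p = 0.362). AT2G34480 (L18a) was at 0.21 ± 0.08 (adjusted p = 0.110), also with no overlap. AT1G18540 (L6) had 5711, 6439 and 6608 with brassinazole, against 5776, 5282 and 4721 with 2,4-D alone, so its groups overlapped, brassinazole 1 lying below auxin 1 (0.25 ± 0.09, adjusted p = 0.113).

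The smallest differences of the large subunit were those of the genes for L22, L10a and L4. AT3G05560 (L22) had 7584, 9555 and 9111 with brassinazole, against 8199, 9047 and 8019 with 2,4-D alone. Its log2 change of 0.05 ± 0.09 turned to -0.01 under quantile normalization and -0.02 without brassinazole 2. PGY1 (AT2G27530) encodes L10a, which forms the mobile stalk beside the site where spent tRNA leaves, and its mutants are known for altered leaf polarity in an asymmetric leaves1 background. It averaged 5445 ± 375 with brassinazole and 5115 ± 364 with 2,4-D alone, a log2 change of 0.09 ± 0.08 (adjusted p = 0.585). AT2G27710, for the acidic stalk protein P2, averaged 8418 ± 647 with brassinazole and 7494 ± 598 with 2,4-D alone, and its groups overlapped (0.17 ± 0.09, adjusted p = 0.275).

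In the small subunit, 2 of 9 genes rose, against 3.44% of all probe sets tested. The median log2 change of the 9 was 0.21, with quartiles of 0.19 and 0.29. AT1G15930, which encodes S12, had signals of 11399.6, 10053 and 10255 with brassinazole, against 8118, 9676 and 7174 with 2,4-D alone. The groups were apart by little, since auxin 2 lay near the lowest brassinazole array, and the adjusted p of 0.0490 for a log2 change of 0.35 ± 0.10 was just under the threshold. AT2G41840 encodes S2, which lies near the entry of the message channel, and had 10398, 11034 and 10368 with brassinazole, against 9424, 8759 and 7912 with 2,4-D alone (0.29 ± 0.08, adjusted p = 0.0460). AT2G32060, the second S12 gene, had 3431, 3902 and 4239.7 with brassinazole, against 3266, 3395 and 2691 with 2,4-D alone. Its groups did not overlap, but at 0.31 ± 0.10 it did not pass (adjusted p = 0.0855), though it did without brassinazole 1, at 0.39 (adjusted p = 0.0446). Without auxin 3 its log2 change fell to 0.21 (adjusted p = 0.277). The small subunit had 0 calls with no filter, with no trend, and without brassinazole 2, brassinazole 3 or auxin 3, or without auxin 1 and brassinazole 3 together. It had 1 without brassinazole 1, auxin 1 or auxin 2, with a pseudocount of 1, and with a filter at the 50th percentile. In the last 2 of these fits AT1G15930 was just short of the threshold (limma adjusted p = 0.0501 and 0.0504).

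AT2G17360 (S4), AT3G02080 (S19), AT3G04840 (S3a) and AT2G36160 (S14) were at log2 changes of 0.24, 0.21, 0.19 and 0.19. Of these 4, 0 passed, where 3.44% of all probe sets were called higher and 4.08% lower. At the low end, AT2G21580 (S25) averaged 1644 ± 120.2 with brassinazole and 1513 ± 90.7 with 2,4-D alone (log2 change 0.12 ± 0.09, adjusted p = 0.467). AT1G48830 (S7) had 5562, 5778 and 3827 with brassinazole, against 5256, 5237 and 3909 with 2,4-D alone. Replicate 3 was low in both groups, and the log2 change of 0.06 ± 0.14 turned to -0.02 without brassinazole 1, -0.04 without brassinazole 2 and -0.08 without auxin 3. A low replicate 3 in both groups was also seen for AT2G19740 (L31), at 2066, 2124 and 1395 with brassinazole and 1722, 1854 and 1418 with 2,4-D alone. The difference between the medians of the subunits, 0.28 and 0.21, was not tested, and their genes covered overlapping ranges, 0.05 to 0.50 and 0.06 to 0.35. Their order turned without brassinazole 1, where the medians were 0.26 for the large and 0.28 for the small subunit.

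The shift was spread over all 3 brassinazole arrays. Set against the mean of the arrays with 2,4-D alone, the median gene lay at a log2 difference of 0.21, 0.28 and 0.28 on brassinazole 1, 2 and 3, and at -0.01, 0.01 and -0.00 on auxin 1, 2 and 3. The SD of these medians was 0.04 between the brassinazole arrays and 0.01 between the others. For the 22 large subunit genes alone these SDs were 0.040 and 0.011. The 9 small subunit genes spread more, with SDs of 0.085 and 0.095. Their medians were 0.14, 0.28 and 0.30 on brassinazole 1, 2 and 3, and -0.02, 0.07 and -0.12 on auxin 1, 2 and 3. On brassinazole 1, 2 and 3, 30, 31 and 28 of the 31 genes lay above their mean with 2,4-D alone. On auxin 1, 2 and 3 the counts were 14, 20 and 14. All 3 signals with brassinazole lay above all 3 with 2,4-D alone in 19 of the 31 genes, against 12.9% of all probe sets tested. The highest of the 6 signals of a gene was on brassinazole 1, 2 or 3 for 7, 8 and 16 genes, and on an array with 2,4-D alone for 0 genes. Neither this last count nor the counts above the mean with 2,4-D alone were made over all probe sets. The coefficient of variation between replicates of a group had a median of 7.43% with brassinazole and 7.12% with 2,4-D alone.

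**Figure D2:**
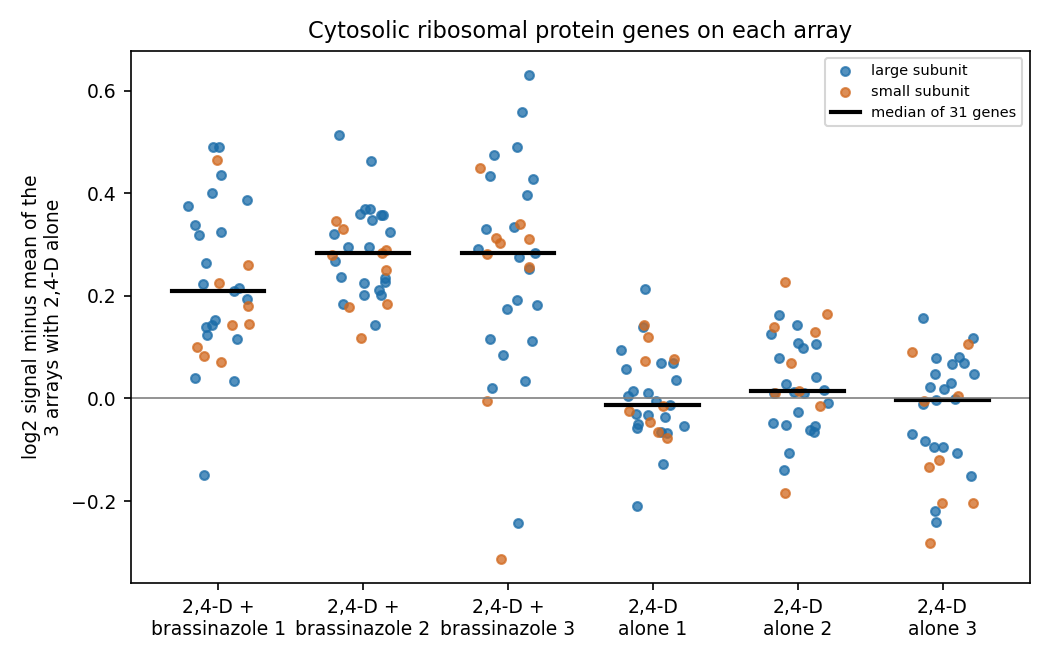
Log2 signal of 31 genes on each array minus the gene's mean over the 3 arrays with 2,4-D alone (vertical axis), by array, with large and small subunit genes in different colours and the median of the genes as a bar. The medians are 0.21, 0.28 and 0.28 on the brassinazole arrays and near 0 on the arrays with 2,4-D alone, whose mean is 0 by construction.

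The deposited values share a trimmed mean on each array, and other scalings were compared with it. Centring each array on its median raised every change by the same amount: the median of the 31 genes became 0.27 and that of all probe sets 0.01, and 12 genes were called higher, against 3.96% of all probe sets. The distance between the medians of the genes and of all probe sets, 0.26, was therefore the same in both scalings by construction. The probe sets of these genes are bright, 29 of 31 being in the top 10% of signals, so a scaling that depends on brightness was tried too. With cyclic loess the median was 0.22 and 8 genes were called higher, against 3.61% of all probe sets, and with quantile normalization it was 0.21 with 9 called, against 3.62%. The 8 genes called with loess were among the 11. The small subunit lost both its calls in these 2 scalings, with medians of 0.16 and 0.15, while the large subunit stayed at 0.27 and 0.26. In the deposited scaling, the 2275 probe sets in the top 10% of signals had a median log2 change of 0.02, and 7.12% of them were called higher. Across the 31 genes, mean log2 signal and log2 change had a Spearman rho of 0.11, given as a description since all genes share the same 6 arrays.

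**Figure D3:**
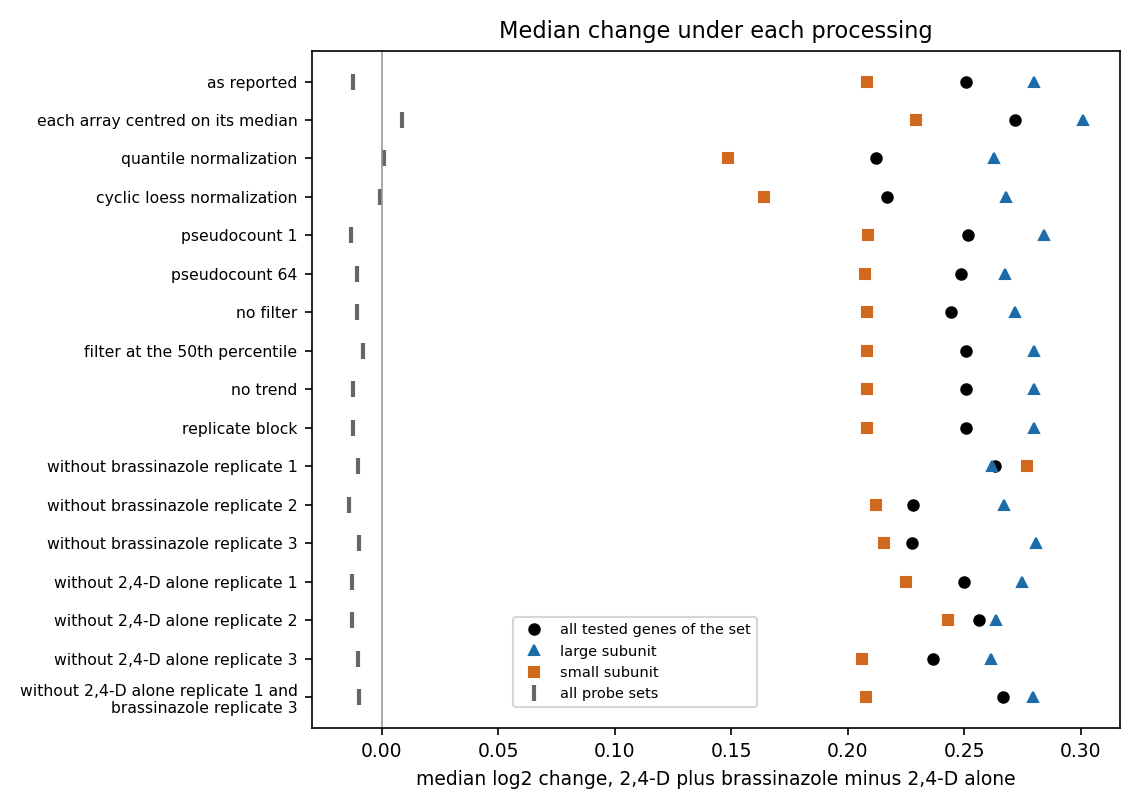
Median log2 change (horizontal axis) of all tested genes, of the large and of the small subunit genes, and of all probe sets, under each processing (rows). The median of the genes stays between 0.21 and 0.27 in every row shown, and that of all probe sets between -0.01 and 0.01.

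**Figure D4:**
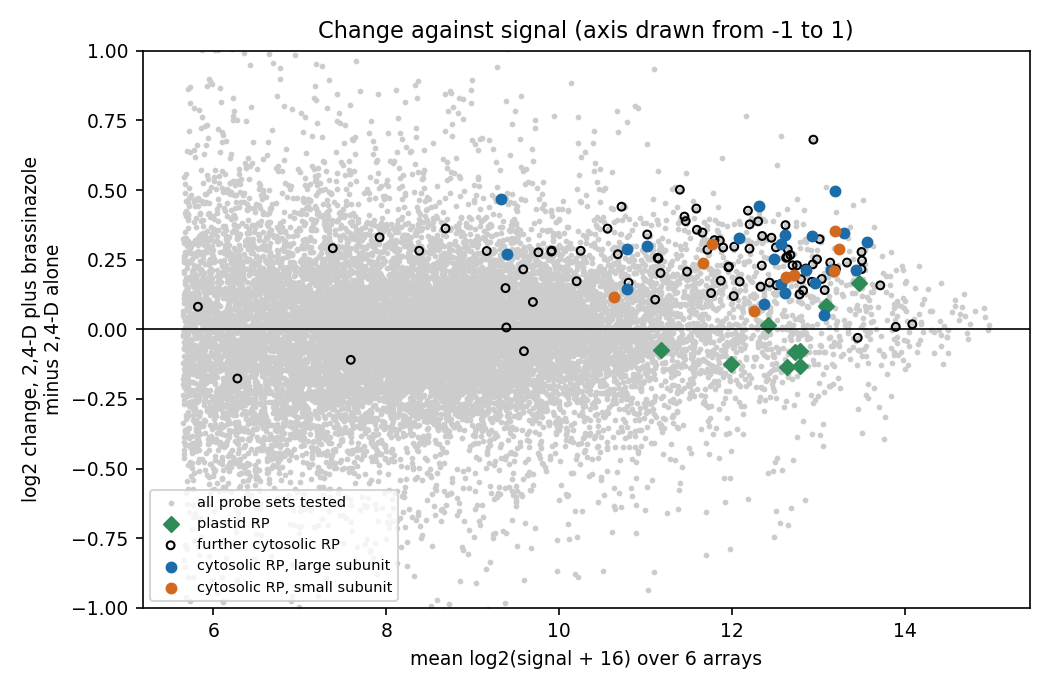
Log2 change (vertical axis) against mean log2(signal + 16) over 6 arrays (horizontal axis) for all 17059 probe sets tested (grey) and for ribosomal protein genes. The 31 genes and the further cytosolic genes lie mostly above 0 at high signals, while the 9 plastid genes lie on both sides of it; probe sets beyond a change of 1 in size are not drawn.

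Families with more than 1 measured member allow gene copies to be set side by side. The pair for L7 had log2 changes of 0.34 (AT2G44120) and 0.21 (AT2G01250), that for L10a 0.16 (AT1G08360) and 0.09 (AT2G27530), that for L17 0.35 and 0.33, and that for S12 0.35 and 0.31. The largest of these differences, L7, was -0.13 ± 0.08 (SE, AT2G01250 minus AT2G44120), with an exact permutation p of 0.1, two-sided, the smallest that 3 against 3 arrays can give. Adjusted over the 5 pairs compared, p was 0.5 for L7 and 0.9 for the others, and since 0.1 is the lowest p that the design allows, this does not show that copies act alike. The fifth pair holds AT1G36240, for L30, the only measured member under the filter. It was near background at 28.7, 52.4 and 12.9 with brassinazole and 38.8, 23.4 and 40.7 with 2,4-D alone, and with no filter its log2 change was -0.16 ± 0.31 (adjusted p = 0.861). Its partner AT1G77940 averaged 7958 ± 374 with brassinazole and 6861 ± 260.0 with 2,4-D alone, a log2 change of 0.21 ± 0.07 (adjusted p = 0.104).

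The 8 probe sets that carry several genes and hold a member cannot be given to 1 locus. Their log2 changes lay between 0.08 and 0.41 with a median of 0.27. All 8 were above 0, against 47.3% of all probe sets tested, and 3 were called higher, against 3.44%.

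Further genes of the cytosolic ribosome had a like median. Of 145 loci in that list, 84 were tested, and 80 had a log2 change above 0, against 47.3% of all probe sets. By limma adjusted p, 22 rose and 0 fell, against 3.44% and 4.08% of all probe sets. At an unadjusted limma p under 0.05, 59 were higher and 0 lower, against 10.5% and 11.4%. The median of the 84 was 0.25, with 0.25 for 51 large and 0.24 for 33 small subunit genes. AT3G06680 (L29) averaged 3203 ± 432 with brassinazole and 2246 ± 31.0 with 2,4-D alone (log2 change 0.50 ± 0.09, adjusted p = 0.00412), and AT3G47370 (S20) averaged 3554 ± 141 with brassinazole and 2627 ± 70.7 with 2,4-D alone (0.43 ± 0.07, adjusted p = 0.00234). AT5G02610 (L35) also rose (0.44 ± 0.09, adjusted p = 0.00755). AT4G39200 (S25) had the largest change in the list, 0.68 ± 0.19 (adjusted p = 0.0407), but on brassinazole 1 it was at 6982, below the 7535 of auxin 2. The 4 genes below 0, named after their values were seen, were AT2G16360 (S25, -0.18 ± 0.18), AT2G40010 (P0, -0.11 ± 0.17), AT5G39850 (S9, -0.08 ± 0.10) and AT4G27090 (L14, -0.03 ± 0.08). AT2G16360 and AT2G40010 were dimmer than every tested member, averaging 57.3 and 174 with brassinazole, against 66.5 and 184 with 2,4-D alone. Over both lists, 115 genes of 55 protein families were tested, and in 51 families every tested gene was above 0. Among the 27 families that hold a tested member, this was so in 25; the exceptions were L14 and S25.

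Lists of related genes were described in the same way. Proteins of plastid ribosomes, which translate the plastid genome, had a median log2 change of -0.08. Of 36 listed loci only 9 were tested, and 3 of these 9 were above 0, against 47.3% of all probe sets. By limma 0 were called, where 3.44% of all probe sets were called higher and 4.08% lower. At an unadjusted limma p under 0.05 there were also 0, against 10.5% higher and 11.4% lower. The nearest to the threshold were AT2G43030 (plastid L3) at 0.17 ± 0.08 and AT3G54210 (plastid L17) at -0.13 ± 0.07 (adjusted p = 0.239 and 0.301). Of 28 listed loci for factors that assemble ribosomes, 12 were tested. Their median was 0.19, with 11 of 12 above 0, against 47.3% of all probe sets. Against 3.44% of all probe sets, 2 of the 12 rose. These were AT3G03920, for a Gar1-type protein that helps modify ribosomal RNA (0.38 ± 0.09, adjusted p = 0.0135), and AT3G05060, for a Nop56/Nop58-type protein of small nucleolar particles (0.36 ± 0.10, adjusted p = 0.0352).

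Of 43 listed loci for translation initiation factors, 12 were tested. Their median was 0.06, with 7 of 12 above 0, against 47.3% of all probe sets. By limma 0 were called, where 3.44% of all probe sets were called higher and 4.08% lower. At an unadjusted limma p under 0.05, 1 of 12 was higher and 0 lower, against 10.5% and 11.4% of all probe sets. AT1G72730, for a helicase of the eIF4A type, was at 0.37 ± 0.11 (adjusted p = 0.0591) and AT2G04520, for eIF1A, at 0.19 ± 0.09 (adjusted p = 0.248). The 2 tested of 15 listed elongation factor genes, AT5G19510 and AT5G12110, gave 0.19 and -0.20, both short of the threshold (adjusted p = 0.142 and 0.389). RAPTOR1, a partner of the TOR kinase and the only one of 7 listed regulators measured, had signals of 519.5 ± 31.8 with brassinazole and 521 ± 54.7 with 2,4-D alone. By array, the median of the plastid genes relative to 2,4-D alone was -0.08, -0.03 and 0.01 on brassinazole 1, 2 and 3, below that of the cytosolic genes on each array. The difference between these lists was not tested.

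**Figure D5:**
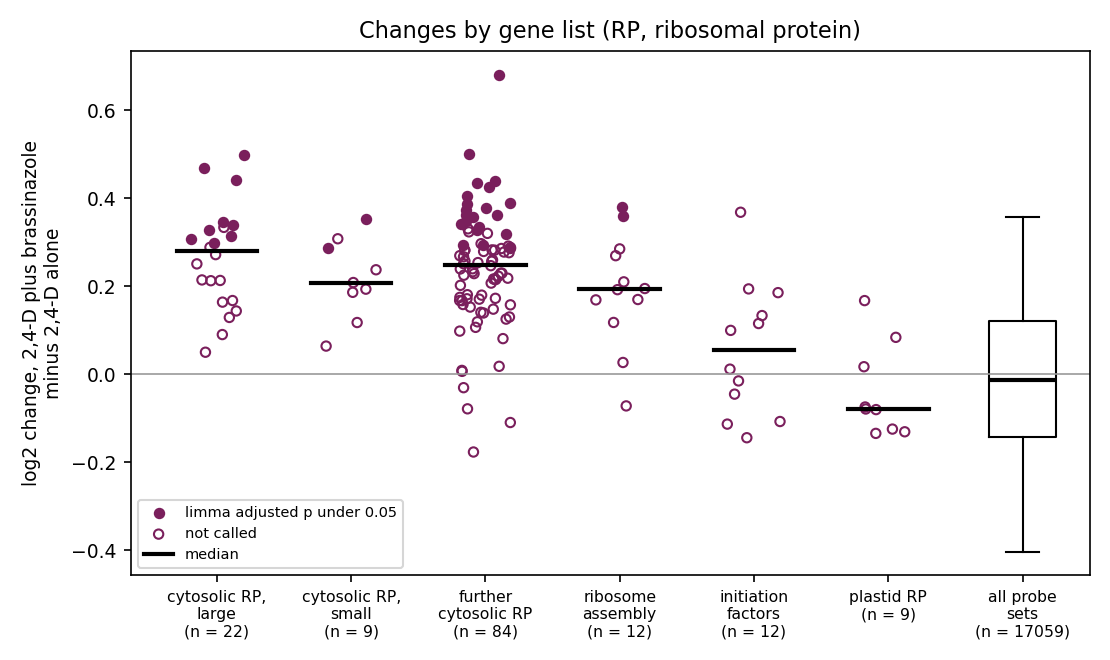
Log2 change (vertical axis, 2,4-D plus brassinazole minus 2,4-D alone) of each tested gene by list, with the median as a bar and filled points for a limma adjusted p under 0.05; the box for all 17059 probe sets spans the quartiles, with whiskers at the 5th and 95th percentiles. The medians are 0.28 and 0.21 for the large and small subunit genes, 0.25 for further cytosolic genes, 0.19 for assembly factors, 0.06 for initiation factors and -0.08 for plastid ribosomal proteins.

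Some other measures differed between the groups along with these genes, and their part in the result was not tested. The 5S rRNA control, a probe set for an RNA of the large subunit, read 230.0, 284 and 248 with brassinazole, against 134, 153 and 174 with 2,4-D alone. The 25S rRNA control did not follow it, at 212, 196 and 179.9 with brassinazole and 981, 215 and 174 with 2,4-D alone. The actin controls give a 3' to 5' signal ratio that grows as RNA degrades, and in one set it ran from 18.8 to 21.1 with brassinazole and 12.3 to 17.3 with 2,4-D alone. In the other set it overlapped, at 2.21 to 2.43 with brassinazole and 2.31 to 2.52 with 2,4-D alone. Of the organ markers listed, 6 of the shoot and 6 of the root, 1 and 2 were tested. RCA of green tissue and PYK10 of roots were bright in both groups and had log2 changes of 0.05 and 0.09. EXPA7 of root hairs was at 154 ± 7.65 with brassinazole and 205 ± 27.2 with 2,4-D alone. Its log2 change was -0.37 ± 0.13 (SE), and every brassinazole array lay below every array with 2,4-D alone. By limma, 0 of the 3 passed (adjusted p = 0.780, 0.684 and 0.0916), where 3.44% of all probe sets rose and 4.08% fell.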

How the data were processed

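The deposited values are intensities, 1 linear signal per probe set and array, made by the authors. The submitters' processing notes name MAS5, but its version is not given in the sources used here, nor are detection calls. The trimmed mean signal was 500.0 on all 6 arrays and the median 188.1 to 195.2, so arrays had been scaled to a common level, and a change of most transcripts in one direction would not be seen. Of 22810 probe sets, 64 controls were left out. The platform annotation pairs 13513 with 1 gene and 503 with several; no genome build is named, so no coordinates are given, and RefSeq (TAIR10.1) served for names only. Sequences were not used here.

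The log2 of each signal plus 16 was used, and probe sets with a mean under the 25th percentile were left out. Groups were compared across all 17059 remaining probe sets with limma 3.58.1 in R 4.3.3 (lmFit, eBayes with a trend), two-sided, Benjamini-Hochberg adjusted, threshold 0.05; these adjusted p-values are the ones given. SE is that of limma, SD that of signals over 3 arrays. Fold changes on this scale understate those of dim probe sets, and 3 arrays per group limit the precision. The steps were tested on simulated data.

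The labels call replicates biological but describe RNA as pooled, so p-values may measure technical spread only. Same-numbered arrays of the groups had correlations of 0.0372 to 0.0625 between their deviations, so they were not treated as pairs. One probe set was used per gene, and each member had only 1. A probe set given to 1 gene may still bind close copies of it. The members and lists were chosen with earlier results of these data known. Genes were named by rule: up to 12 called members, the 3 highest and lowest of each subunit, families with 2 or more members, the 3 brightest and dimmest members, and from other lists up to 4 called genes or, where none passed, 2 by p. Members named beyond this were chosen after their values were seen. Alternatives were array scaling, pseudocounts of 1 and 64, filters, no trend, a replicate block and leaving out arrays.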

Additional observations from a re-analysis of the deposited data

Results flagged for a closer look

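The 5S rRNA control probe set, which took no part in the comparison, carried a signal in the brassinazole samples above that in the samples with 2,4-D alone: at least 230.0 on each of the 3 arrays, against at most 174. No group held enough arrays to test single arrays as outliers.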

How the results depend on the processing

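The medians of all tested genes and of each subunit kept their sign in every alternative run, and 0 genes were called lower in any. The median of all tested genes moved by more than the spread between arrays, to 0.212 with quantile normalization and 0.217 with cyclic loess, and was 0.228 to 0.263 without single arrays. The count of genes called higher, 11 as reported, was 4 with no filter, 2 with no trend, 3 to 8 without single arrays, and 4 without auxin 1 and brassinazole 3, the last chosen after seeing the data; fewer arrays alone give fewer calls, and the other causes were not tested. With the replicate block 10 were called, 8 of them among the 11: AT1G15930, AT2G41840 and AT1G52300 were not (limma adjusted p = 0.0557, 0.0592 and 0.0618), so 0 small subunit genes were, and AT2G37190 and AT2G20450 were (0.0254 and 0.0492); each array correlated best with its own number, a hint from the data and not from the design. The change of AT1G48830 turned to -0.0165 and -0.0438 without brassinazole 1 or 2 and to -0.0770 without auxin 3, within a range of -0.0770 to 0.324 over all array omissions. That of AT3G05560 turned to -0.00574 with quantile normalization, -0.0168 without brassinazole 2 and -0.000866 without auxin 1 and brassinazole 3, within a range of -0.0168 to 0.150; neither was called. Using all single-gene probe sets, or only those whose ID marks no shared probes, changed nothing, since each member had 1 such probe set.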
